A study of Rattus norvegicus with 11 samples.

Results

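White blood cells from normal Wistar rats were described by their RNA at baseline, in 3 samples of healthy controls. The members are the genes whose FPKM averaged 1 or more over these 3 samples, 11254 of the 32623 genes in the table. FPKM is the number of fragments of a gene scaled by the gene's length and the sample's total, so levels can be set side by side per unit of length. The series holds 11 samples, and the other 8, from rats with collagen-induced arthritis, were not used. Per the methods of the experiment that the labels match, the rats were males housed free of specific pathogens, 7 weeks old at the start, with no treatment or engineered allele named for the healthy controls. Their day of sampling was not given in the sources used here. Blood was drawn from the orbital vein, red cells were lysed, and libraries were made from poly(A) RNA. The samples are called replicates 1, 2 and 3, and each set of 3 values is in that order. The labels do not say that each sample was a separate rat, so the spread between samples may be technical in part, and with a single group no test was run.

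Blood leukocytes are a mixture. Neutrophils and monocytes are the circulating phagocytes of innate immunity, T and B cells carry the receptors of adaptive immunity, and NK cells kill with granules of granzymes and perforin. Young red cells (reticulocytes) and platelets lack a nucleus but keep RNA from their precursors, above all that of haemoglobin in red cells and that of platelet factor 4 in platelets. Rat MHC genes carry the prefix RT1.

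The 3 samples were deeply sequenced and differed from each other beyond counting error. Total counts were 71500619, 85819418 and 81464754, and 16654, 15747 and 16372 genes had at least 1 count. Between pairs of samples the mean chi-square per gene was at least 528, where 1 is the value of pure counting noise, so no sample was a copy of another. Pearson correlations of log2(FPKM + 1) over the members were 0.941 for replicates 1 and 2, 0.938 for 1 and 3, and 0.905 for 2 and 3, across genes that share a library and are not independent. The highest FPKM was over 2 times the lowest, the fold that the study used, in 5747 of the 11254 members, or 51.1%. After TMM scaling, edgeR's correction for unequal RNA composition, the number was 3512, or 31.2%. Replicates 1 and 3 alone gave 1774 genes past 2 times (15.5%), replicates 1 and 2 gave 2401 (21.8%), and replicates 2 and 3 gave 4849 (43.5%). These shares are of the genes averaging 1 FPKM or more over the replicates compared. A gene's ratio over fewer samples cannot be larger than over all 3.

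Replicates 2 and 3 stood furthest apart, and the median of all genes was shifted between them. The median member was higher by 0.31 on the log2 scale in replicate 1 than in replicate 2, and by 0.63 in replicate 3 than in replicate 2. As deposited, 65.3% of members were highest in replicate 3, 19.9% in replicate 1 and 14.8% in replicate 2, while 66.0% were lowest in replicate 2, 19.8% in replicate 1 and 14.2% in replicate 3. With TMM scaling the medians differed by at most 0.05, and 29.1%, 35.2% and 35.7% of members were highest in replicates 1, 2 and 3, with 27.5%, 39.8% and 32.7% lowest there. These shares are the background for all later counts of marker genes, on both scales. In bulk samples, fewer cells of a type and less RNA per cell cannot be told apart.

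The samples carried the RNA of blood cells, and the defining genes of other tissues were mostly at or near 0. Ptprc, which encodes the CD45 antigen of all leukocytes, was at 233, 143 and 236 FPKM and ranked 346 by mean FPKM. The deposited extraction protocol speaks of retinas, so 15 retina genes were looked up. Crx, Nrl and Rpe65, which mark photoreceptors and pigment epithelium, had no count in any sample, and only Rom1 reached a mean of 1 FPKM, at 4.32, 3.06 and 5.69 FPKM. Of 9 endothelial genes 3 were members, led by Vwf, which platelets also carry, at 7.93, 8.07 and 13.1 FPKM. Of 10 genes of epithelium and skin only Cldn4 was a member, at 3.32, 1.453 and 0.793 FPKM, and Epcam had no count. Among 7 liver genes, Alb, Ttr, Serpina1 and Fgb had no count, while Tf, the iron carrier transferrin, was at 86.6, 179 and 64.6 FPKM. Of 10 genes of connective tissue and muscle Tnnt3 and Acta1 were members, and the collagen and proteoglycan genes were near 0 and highest in replicate 1, with Col1a1 at 1.37, 0.0883 and 0.368 FPKM and Dcn at 1.301, 0 and 0 FPKM. The Y-linked genes Eif2s3y and Kdm5d were at 19.8, 26.8 and 21.7 FPKM and at 4.59, 3.396 and 6.63 FPKM. The only entry named Ddx3y is listed on chromosome 13, not on Y, and was at 0, 0 and 0.0411 FPKM, so it does not give the level of a Y-linked copy. Over all lists used, 478 of 504 symbols were found in the table.

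Haemoglobin RNA was the largest single class. The 11 haemoglobin genes took 50.2%, 51.1% and 30.5% of the summed FPKM, 44.0% ± 11.6 (SD, n = 3). As a share of counts, which does not divide by length, they took 30.1%, 30.9% and 16.2%. The 5 most abundant genes of the whole table were all haemoglobin genes. The first of a pair of entries named Hba-a2, an adult alpha chain (chr10:15602794-15603649 as the table lists it, ENSRNOG00000029886), was at 233588, 249285 and 116350.0 FPKM. The second (chr10:15589364-15590220, ENSRNOG00000047321) was at 103823, 104004 and 59676 FPKM. The beta chain gene Hbb was at 75176, 68367 and 39809.6 FPKM, LOC103694857, described as beta-2, at 54890.4, 57595 and 33788 FPKM, and LOC689064, described as beta-globin, at 13477, 14839 and 7069 FPKM. In each of the 5 replicate 3 was lowest, and it stayed lowest with TMM scaling. The split of reads between such similar genes is uncertain, since the counting of shared reads was not given in the sources used here. Hbq1a, a theta chain, was at 129.8, 122 and 70.5 FPKM, the embryonic Hbe1 was at 1.69, 2.05 and 1.97 FPKM, and embryonic Hbz, Hbg1 and Hbe2 had no count.

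**Figure D1:**
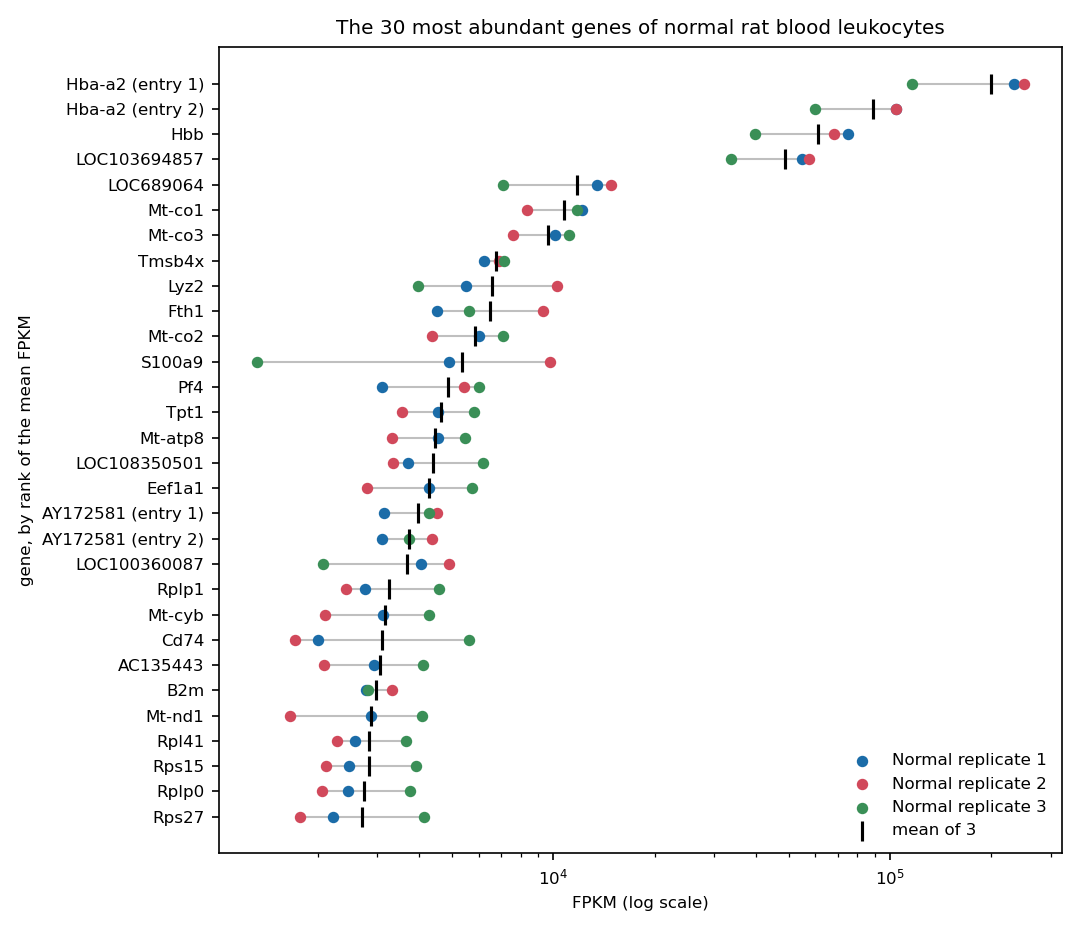
FPKM (log scale) of the 30 genes with the highest mean, by sample. Coloured points are the 3 normal replicates, black ticks their mean and grey lines the range. The 5 haemoglobin genes stand at the top and are lowest in replicate 3, while Tmsb4x and B2m have the narrowest ranges and S100a9 the widest.

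Below haemoglobin the most abundant RNAs were those of mitochondria, actin dynamics, phagocytes, iron storage and platelets. The mitochondrially encoded cytochrome oxidase genes Mt-co1, Mt-co3 and Mt-co2 ranked 6, 7 and 11, with Mt-co1 at 12198, 8336 and 11762 FPKM. Tmsb4x, thymosin beta 4, which holds monomeric actin, had the narrowest range of the 30 leading genes as deposited, at 6213, 6914 and 7139 FPKM. Lyz2, the lysozyme of phagocytes, was at 5507, 10254 and 3978 FPKM, a ratio of 2.58 between the highest and the lowest sample. Fth1, the ferritin heavy chain, was at 4526, 9292 and 5635 FPKM, and LOC100360087, described as ferritin light chain 1-like, at 4060.1, 4899 and 2068 FPKM, both highest in replicate 2. S100a9, a subunit of calprotectin of neutrophils, was at 4912, 9788 and 1323 FPKM. Pf4, platelet factor 4, was at 3107, 5443 and 6040.1 FPKM. Tpt1, the translationally controlled tumour protein, and Eef1a1, a translation elongation factor, were at 4535, 3568 and 5809 FPKM and at 4287, 2803 and 5744 FPKM, lowest in replicate 2 in both cases as deposited. Their ratios of highest to lowest were 1.63 and 2.05 as deposited, but 1.02 and 1.27 with TMM scaling.

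Other genes high on the list carried antigen presentation, ubiquitin, a neuropeptide and inflammation. Cd74, the invariant chain of MHC class II, was at 2007, 1709 and 5616 FPKM, and B2m, the light chain of MHC class I, at 2776, 3325 and 2820.3 FPKM. As deposited, Cd74 differed 3.29 times between samples and B2m 1.198 times, and with TMM scaling 2.22 and 1.91 times. Ubb, which encodes ubiquitin and is typed as a pseudogene in the table, was at 3236, 2782 and 2107 FPKM. Npy, neuropeptide Y, was at 1735, 2676 and 2300.2 FPKM, ranked 37, and its copy LOC100912228 was at 1982, 3038 and 2834 FPKM. Il1b, the inflammatory cytokine interleukin 1 beta, was at 1906, 3810.0 and 658 FPKM, rank 40. Nfkbia, the inhibitor of NF-κB, was at 1459.7, 2477 and 489 FPKM. Both Il1b and Nfkbia were highest in replicate 2 and lowest in replicate 3. S100a8, the partner of S100a9, was at 1892, 3532 and 638 FPKM. LOC100364435, described as thymosin beta 10-like, was at 1968, 1587 and 3780.4 FPKM, highest in replicate 3. Among the 20 leading genes outside haemoglobin, ribosomes and mitochondria, AC135443 and AC128792 carried no description. Both were typed as miRNAs, AC135443 with 83 bases by counts over FPKM and 17508, 14878 and 28013 counts. AC128792, with 15643, 24296 and 7888 counts, lay at chr1:101448331-101448436 and overlapped the entry of LOC100360087 at chr1:101448346-101449829. How reads were shared between these entries was not tested. At such lengths an FPKM value takes fewer reads than in a longer gene, and 400 members were shorter than 200 bases by counts over FPKM. They held only a small part of the RNA, since all genes of that length took 1.68% ± 0.122 (SD, n = 3) of the summed FPKM.

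Per length, a few genes took most of the RNA. The 10 most abundant genes held 54.2%, 55.5% and 35.0% of the summed FPKM, the 100 most abundant 71.0%, 71.7% and 60.04%, and the 1000 most abundant 87.9%, 89.3% and 82.8%. Of counts, the 100 most abundant held 47.1%, 47.6% and 36.9%. With haemoglobin left out, the 100 most abundant of the remaining genes held 42.7%, 43.0% and 43.5%, so the samples were close to each other there. The 174 ribosomal protein genes took 9.93%, 7.64% and 17.8% of all FPKM, and 19.9%, 15.6% and 25.6% of what was left without haemoglobin. Of the 160 ribosomal protein members, 150 were highest in replicate 3 as deposited and 131 with TMM scaling, against 65.3% and 35.7% of all members. The 37 mitochondrially encoded genes took 5.67%, 4.38% and 7.77%, and 11.4%, 8.97% and 11.2% without haemoglobin. By type, 9997 members were listed as protein_coding alone, 192 as snoRNA, 145 as lincRNA and 118 as miRNA, in libraries selected for poly(A).

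Genes of the actin cytoskeleton were high. All 19 listed genes were members, with a median rank of 213 and a summed level of 14515, 14956 and 15903 FPKM. Tmsb4x, given above, was the largest single part of it. With TMM scaling the sums were 14438, 19070 and 12539, so they were close as deposited alone. Actb was at 1401, 1337 and 1056 FPKM, Pfn1, the actin-binding profilin, at 1051, 1045 and 1139 FPKM, and Coro1a, a coronin of blood cells, at 836, 667 and 821 FPKM. Of the 19, 3 passed 2 times as deposited and 5 with TMM scaling, against 51.1% and 31.2% of all members.

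Across 13 lineage lists, 161 of the 192 entries found were members, and 106 of them, or 65.8%, passed 2 times, against the 51.1% of all members, with 107, or 66.5%, on the TMM scale against 31.2%. The summed level of 7 of the 13 lists differed more than 2 times between the highest and the lowest sample, and of 9 with TMM scaling. With replicate 1, 2 or 3 left out, the number of lists as deposited was 5, 3 and 3. It could only stay or fall, since a ratio over fewer samples cannot be larger. The sample with the highest sum was another one with TMM scaling in 5 of the 13 lists.

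**Figure D2:**
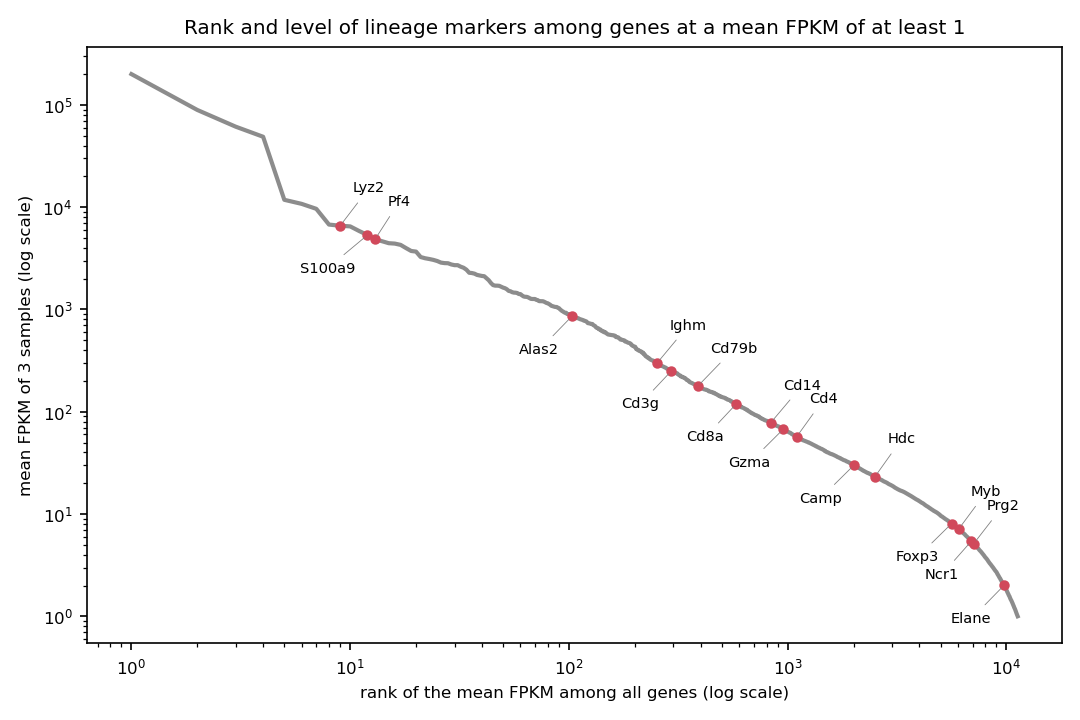
Mean FPKM of 3 samples against its rank among all genes, both on log scales, with the members as a grey line and lineage markers as red points. Markers of neutrophils, phagocytes and platelets (S100a9, Lyz2, Pf4) stand within the first 13 ranks, the T cell marker Cd3g at 294 and the B cell marker Cd79b at 388.

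Neutrophil genes had the largest ratio of summed levels of the 13 lists. Of 23 entries, 17 were members, and the sum over all entries was 8440.0, 15810.4 and 2650.0 FPKM, 5.97 times higher in replicate 2 than in replicate 3. Replicate 2 was highest in 14 of the 17 as deposited and in 15 with TMM scaling, against 14.8% and 35.2% of all members. Replicate 3 was lowest in 16 and 17, against 14.2% and 32.7%. S100a9 and S100a8 made up most of the sum, and without S100a9 the sums were 3529, 6022 and 1327 FPKM. Il1r2, the decoy receptor of interleukin 1, was at 366, 781 and 82.6 FPKM, a ratio of 9.46. Csf3r, the receptor of the growth factor of granulocytes, was at 140.4, 175 and 42.4 FPKM, and Cxcr2, the chemokine receptor that recruits neutrophils, at 78.5, 115 and 17.9 FPKM. The collagenase Mmp8 was at 106, 185 and 33.5 FPKM and the gelatinase Mmp9 at 24.01, 96.8 and 9.604 FPKM. All 5 had replicate 2 highest and replicate 3 lowest, with replicate 1 between them.

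The granule genes Camp, Ngp, Elane, Mpo, Prtn3 and Ltf, made mainly by bone marrow precursors, ranged from rank 2010 for Camp to near 0. Other genes of the neutrophil list were higher by mean FPKM, among them Mmp8, Mmp9 and Retnlg, with Retnlg at 258, 330 and 92.3 FPKM. Camp, a granule peptide, was at 29.7, 52.3 and 8.21 FPKM, and Ngp, a granule protein, at 20.8, 27.2 and 4.58 FPKM. Elane, neutrophil elastase, was at 1.88, 3.46 and 0.669 FPKM, while Mpo, myeloperoxidase, was at 0.111, 0.246 and 0.04501 FPKM and Prtn3 at 0, 0 and 0.0446 FPKM. Ltf, lactoferrin, was at 0, 0 and 0.1799 FPKM. Replicate 2 was highest in Camp, Ngp, Elane and Mpo. Lcn2, lipocalin 2, which binds bacterial iron carriers, was apart from the others, at 6.37, 96.5 and 3.24 FPKM, high in replicate 2 alone. The adhesion molecule Selplg, which lymphocytes also carry, was at 121, 92.6 and 91.1 FPKM, a ratio of 1.33 and of 1.68 with TMM scaling.

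The monocyte sum rested on 1 gene. The sum over 19 entries was 6088, 11004 and 4466 FPKM, of which Lyz2, a gene that neutrophils also carry, was most. Without Lyz2 the sums were 580.5, 749.9 and 488 FPKM, 1.54 times apart. Of the 14 members, 7 were highest in replicate 2, 5 in replicate 3 and 2 in replicate 1 as deposited. With TMM scaling 10 were highest in replicate 2, 4 in replicate 1 and 0 in replicate 3. Of all members 14.8%, 65.3% and 19.9% were highest in replicates 2, 3 and 1 as deposited. With TMM scaling these shares were 35.2%, 35.7% and 29.1%. Cd14, the co-receptor of lipopolysaccharide, was at 19.6, 141 and 72.7 FPKM, lowest in replicate 1. Csf1r, the receptor of the monocyte growth factor, was at 33.9, 42.1 and 68.1 FPKM, highest in replicate 3 as deposited. Fcgr1a, the high-affinity receptor of IgG, was at 66.7, 119 and 31.8 FPKM, and Cd68, a lysosomal protein, at 35.4, 56.8 and 53.9 FPKM. Adgre1 and Cx3cr1, which mark monocyte subsets, were close between samples as deposited, at 9.56, 9.69 and 11.4 FPKM and 4.25, 4.83 and 3.64 FPKM. The tissue macrophage gene Cd163 had no count, and Mertk was at 0.0109, 0.00416 and 0.0758 FPKM.

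T cell genes were lowest in replicate 2 without exception on the deposited scale. All 21 entries were members, with a sum of 2007, 922 and 2237 FPKM, and replicate 2 was lowest in all 21 as deposited and in 20 with TMM scaling, against 66.0% and 39.8% of all members. Which sample was highest depended on the scale: replicate 3 led in 12 and replicate 1 in 9 as deposited, against 65.3% and 19.9% of all members. With TMM scaling replicate 1 led in 17, against 29.1% of all members. Of the CD3 chains of the T cell receptor, Cd3g was at 284, 123 and 345 FPKM, rank 294, Cd3d at 184, 106 and 236 FPKM and Cd3e at 172, 90.99 and 217 FPKM. Cd8a, the co-receptor of killer T cells, was at 164, 48.9 and 147 FPKM, and Cd4, that of helper T cells, at 61.9, 41.8 and 67.7 FPKM. Cd4, which rat monocytes also carry, differed 1.62 times and Cd8a 3.35 times as deposited, and 1.15 and 2.61 times with TMM scaling. The kinase Lck was at 156, 44.6 and 124 FPKM and the kinase Zap70 at 62.1, 22.8 and 39.6 FPKM, both signalling from the receptor. Tcf7 and Lef1, transcription factors of naive T cells, were at 115, 38.1 and 125 FPKM and 42.3, 23.1 and 84.3 FPKM, and Ccr7, the homing receptor to lymph nodes, at 205, 135 and 237 FPKM. Of the 21, 19 passed 2 times as deposited and 13 with TMM scaling, against 51.1% and 31.2% of all members.

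Factors of helper subsets were low, and 4 of 8 members passed 2 times on either scale, against 51.1% and 31.2% of all members. Foxp3, the factor of regulatory T cells, was at 6.86, 7.36 and 9.98 FPKM, rank 5613, and Ctla4, an inhibitory receptor, at 25.3, 13.6 and 23.7 FPKM. Tbx21, the factor of the type 1 subset and of NK cells, was at 26.4, 8.54 and 8.704 FPKM, highest in replicate 1. Gata3, that of the type 2 subset, was at 9.47, 3.32 and 6.303 FPKM, also highest in replicate 1. The summed level of the 10 genes was 110.2, 84.4 and 103 FPKM.

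B cell genes were highest in replicate 3 in every member on the deposited scale. All 17 entries found were members, with a sum of 687, 363 and 1331 FPKM, 3.67 times apart, and all 17 passed 2 times as deposited and 10 with TMM scaling, against 51.1% and 31.2% of all members. Replicate 3 was highest in 17 as deposited and 16 with TMM scaling, against 65.3% and 35.7% of all members. Replicate 2 was lowest in 17 and 16, against 66.0% and 39.8%. The sums on the TMM scale were 684, 462 and 1049.6. Cd79b, a signalling chain of the B cell receptor, was at 130.3, 50.8 and 352 FPKM, a ratio of 6.93 and of 4.28 with TMM scaling. Ms4a1, which encodes CD20, was at 48.3, 18.3 and 81.5 FPKM. The B cell factors Pax5 and Ebf1 were at 23.3, 17.9 and 58.3 FPKM and 5.49, 3.58 and 13.5 FPKM, in the same order of samples. Ighm, the heavy chain of IgM, was at 261, 123 and 515 FPKM, rank 253, and Jchain, the joining chain of secreted IgM and IgA, at 187, 73.1 and 247 FPKM. The plasma cell genes were lower, with Mzb1 at 23.3, 14.6 and 42.6 FPKM, Tnfrsf17 at 3.196, 1.55 and 6.45 FPKM and Sdc1, which encodes CD138 and is also found on other cells, at 4.25, 9.54 and 1.997 FPKM, highest in replicate 2. Cd79a, Igkc, Ighg and Igha had no entry by those names and were not used here.

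MHC class II genes were highest in replicate 3, as the B cell genes were. The classical class II chains show peptides to helper T cells and are used by B cells, dendritic cells and part of the monocytes. The list also holds other RT1 genes and Cd74, Ctss, Ciita, Cd86 and Cd80, which are not class II chains. The 13 listed genes had a sum of 2798, 2513 and 8909.7 FPKM, and replicate 3 was highest in 12 of 13 as deposited and 10 with TMM scaling, against 65.3% and 35.7% of all members. RT1-Da was at 302, 314 and 1068 FPKM, RT1-Ba at 171, 189 and 1036 FPKM, RT1-Db1 at 67.4, 71.6 and 519.8 FPKM and RT1-Bb at 70.9, 77.7 and 278 FPKM. As deposited, replicates 1 and 2 were close in these 4 classical chains, and replicate 3 was 3.53 to 7.72 times above the lower of them. RT1-DMa and RT1-DMb, which help to load peptides, were at 30.4, 41.99 and 105 FPKM and 24.7, 21.9 and 74.9 FPKM, and RT1-DOa and RT1-DOb, which restrain that loading, at 23.4, 13.4 and 56.5 FPKM and 25.1, 11.2 and 37.7 FPKM. Ciita, the master activator of class II genes, was at 9.69, 2.86 and 11.6 FPKM. The costimulators Cd86 and Cd80 were at 4.51, 6.44 and 8.21 FPKM and 1.454, 3.36 and 3.12 FPKM. Of the MHC class I list, 4 of 15 members passed 2 times as deposited and 3 with TMM scaling, and of class II 11 of 13 on either scale, where 51.1% and 31.2% of all members did. The difference between the 2 lists was not tested. RT1-A2, a classical class I chain, was at 201, 192 and 343 FPKM, and Tap1, the peptide transporter, at 36.2, 32.6 and 33.6 FPKM.

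The promoters of the class II genes are shown because most of the genes had the same highest sample, and because class II promoters are known to share short elements, among them the Y box, an inverted CCAAT. The letters TGATTGG were searched on both strands in the 130 bases before the start of each gene, in RefSeq promoters of the build GRCr8. Of the 13 genes 11 had an entry. The letters were found on the gene's strand in 7, all of them RT1 genes, and in none of the entries of Cd74, Ctss, Cd86 and Cd80. In all, 1428 of 33469 promoters, or 4.27%, held them on either strand, and among members with an entry 540 of 8401, or 6.43%. Capitals mark TGATTGG, and each sequence ends at the base before the start.
RT1-Da, chr20:4515285-4515414, plus strand: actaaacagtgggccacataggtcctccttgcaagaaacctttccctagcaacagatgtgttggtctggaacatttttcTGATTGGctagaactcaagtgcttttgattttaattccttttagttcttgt
RT1-Ba, chr20:4576927-4577056, plus strand: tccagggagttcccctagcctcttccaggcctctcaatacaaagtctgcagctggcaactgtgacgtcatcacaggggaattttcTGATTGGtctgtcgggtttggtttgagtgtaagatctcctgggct
RT1-Db1, chr20:4560163-4560292, minus strand: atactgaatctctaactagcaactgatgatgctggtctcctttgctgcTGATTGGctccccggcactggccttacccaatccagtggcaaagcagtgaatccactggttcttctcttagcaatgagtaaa
RT1-Bb, chr20:4604119-4604248, minus strand: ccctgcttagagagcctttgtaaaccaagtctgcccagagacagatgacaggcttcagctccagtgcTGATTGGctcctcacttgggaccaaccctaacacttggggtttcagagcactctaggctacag
RT1-DMa, chr20:4712336-4712465, minus strand: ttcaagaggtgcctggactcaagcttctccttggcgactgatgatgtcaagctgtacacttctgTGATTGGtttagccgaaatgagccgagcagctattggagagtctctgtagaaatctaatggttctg
RT1-DOa, chr20:4758424-4758553, minus strand: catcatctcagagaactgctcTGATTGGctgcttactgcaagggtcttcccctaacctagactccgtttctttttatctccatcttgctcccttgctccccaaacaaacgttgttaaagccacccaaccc
RT1-DOb, chr20:4627524-4627653, minus strand: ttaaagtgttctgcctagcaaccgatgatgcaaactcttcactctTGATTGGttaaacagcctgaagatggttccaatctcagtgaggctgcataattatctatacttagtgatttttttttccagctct
The first base of the element lay 45 bases before the start in RT1-Ba, 51 in RT1-Da, 63 in RT1-Bb, 66 in RT1-DMa, 82 in RT1-Db1, 85 in RT1-DOb and 109 in RT1-DOa. Among 13 class I genes with an entry 5 held the letters on either strand. A match describes the letters and does not show that a factor binds there.

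**Figure D3:**
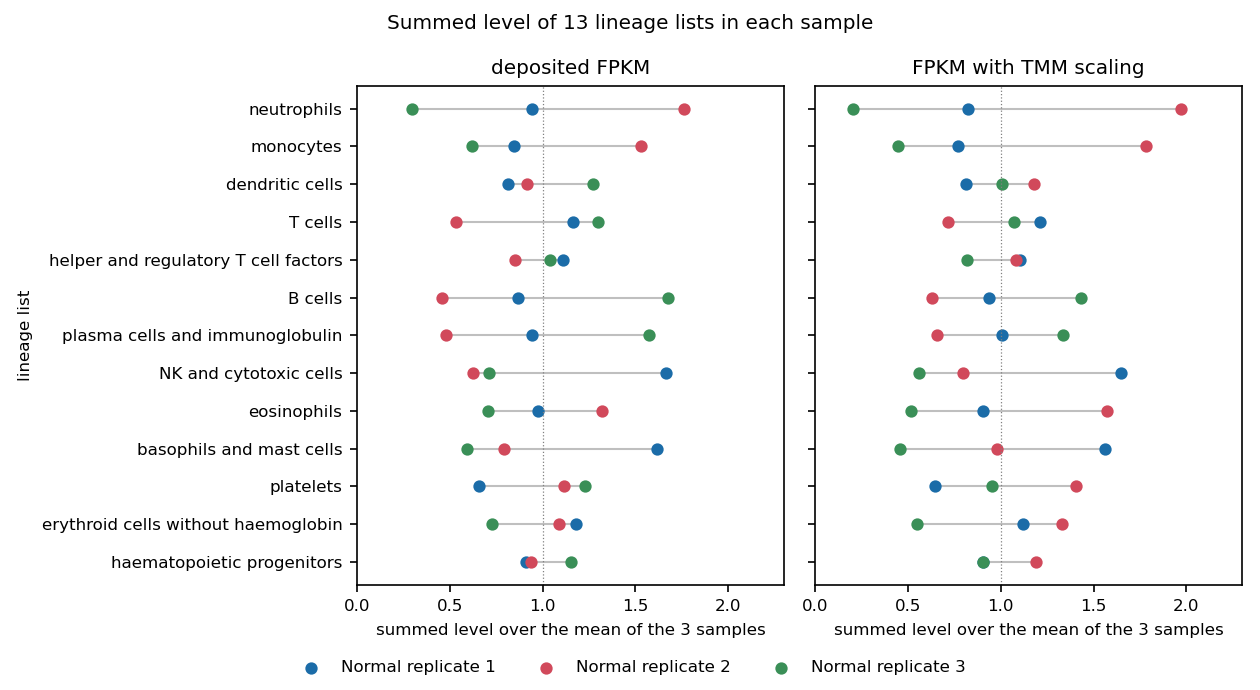
Summed level of each of 13 lineage lists in each sample, divided by the mean of the 3 samples, for deposited FPKM (left) and after TMM scaling (right), with grey lines for the range. Neutrophil and monocyte lists are highest in replicate 2, B cell and plasma cell lists in replicate 3 and NK and basophil lists in replicate 1 on both scales, while the platelet list changes its highest sample.

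NK and cytotoxic genes were highest in replicate 1. Of 18 genes 17 were members, with a sum of 995, 374 and 427 FPKM, and replicate 1 was highest in 13 of 17 as deposited and 15 with TMM scaling, against 19.9% and 29.1% of all members. The granzyme Gzma was at 141, 41.2 and 20.1 FPKM, a ratio of 7.03, Gzmb at 45.7, 12.8 and 8.84 FPKM and Gzmk at 222, 82.8 and 63.4 FPKM. Prf1, perforin, which opens the target membrane, was at 74.7, 21.5 and 33.1 FPKM. Nkg7, a granule membrane protein, was at 205, 77.8 and 72.5 FPKM, and Ncr1, a receptor of NK cells, at 11.6, 2.77 and 1.91 FPKM. Klrb1a and Ncr3, other NK receptors, were highest in replicate 2 on both scales, at 18.5, 20.3 and 8.81 FPKM and 5.13, 7.13 and 6.88 FPKM. Klrk1 and Ctsw were at 41.8, 15.6 and 46.5 FPKM and 75.3, 37.3 and 91.1 FPKM, and were highest in replicate 3 as deposited and in replicate 1 with TMM scaling. Ccl5 and Ifng, a chemokine and the interferon of cytotoxic and helper cells, were at 1076, 418 and 373 FPKM and 16.1, 3.14 and 0.731 FPKM, in the order of Gzma.

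Platelet genes depended on the scale, both in their order and in their evenness. Of 18 genes 17 were members, with a sum of 4323, 7349.6 and 8072 FPKM, and 3 of 17 passed 2 times as deposited and 5 with TMM scaling, against 51.1% and 31.2% of all members. The ratio of the sums was 1.87 as deposited and 2.18 with TMM scaling. Replicate 3 was highest in 13 as deposited, against 65.3% of all members, and replicate 2 in 16 with TMM scaling, against 35.2%. Replicate 1 was lowest in 14 and 12, against 19.8% and 27.5% of all members. Itga2b, the fibrinogen receptor chain, was at 146, 197 and 205 FPKM, Clec1b, a platelet lectin receptor, at 182, 274 and 276 FPKM, and Nrgn, a calmodulin-binding protein, at 367, 667 and 673 FPKM. Gp1bb and Gp9, of the receptor for von Willebrand factor, were at 206, 279.9 and 421 FPKM and 24.5, 31.6 and 45.2 FPKM. Ppbp, the precursor of another platelet chemokine, was only at 11.3, 12.1 and 27.3 FPKM, far below Pf4 per length. Thbs1, thrombospondin 1, which monocytes can also make, was apart from the list, at 7.73, 88.2 and 11.9 FPKM, high in replicate 2 alone.

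Erythroid genes other than haemoglobin were lowest in replicate 3, as haemoglobin was. Of 23 entries 21 were members, and replicate 3 was lowest in 17 as deposited and 19 with TMM scaling, against 14.2% and 32.7% of all members. The sum was 5282, 4879 and 3256 FPKM, of which Ubb, a gene of all cells, was most, and without Ubb it was 2046, 2097 and 1149 FPKM. Alas2, the first enzyme of haem synthesis in red cells, was at 1011, 1095 and 458 FPKM, rank 103. Bpgm, which makes the regulator of oxygen release, was at 337, 327 and 217 FPKM, and Ahsp, which holds free alpha chains, at 147, 135 and 90.7 FPKM. Slc4a1, the band 3 anion exchanger, was at 44.2, 65.98 and 41.04 FPKM. The factors Gata1 and Klf1 were at 5.88, 5.02 and 4.005 FPKM and 15.9, 13.6 and 8.26 FPKM. Rhag, of the Rh complex, went the other way, at 2.39, 3.05 and 7.95 FPKM, highest in replicate 3. Of the 21, 5 passed 2 times as deposited and 17 with TMM scaling, against 51.1% and 31.2% of all members, so the list lay below the share of all members on the first scale and above it on the second.

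The rarer lineages were low. Of 8 eosinophil genes, Alox15 was high, at 486, 665 and 372 FPKM, while Epx, the eosinophil peroxidase, was at 0.0865, 0 and 0.0163 FPKM, Prg3 at 0.0484, 0.0809 and 0 FPKM and Il5ra at 0.0807, 0 and 0.237 FPKM, all near 0, and Prg2, of the granules, was at 7.18, 4.11 and 4.15 FPKM. Siglec5 was at 40.3, 48.6 and 2.71 FPKM, a ratio of 17.9. Of 11 basophil and mast cell entries 5 were members, all highest in replicate 1 on both scales, against 19.9% and 29.1% of all members. Among them Hdc, which makes histamine, was at 34.97, 19.1 and 15.5 FPKM and Mcpt8l2, a basophil protease, at 17.5, 8.33 and 5.05 FPKM. Fcer1a, of the IgE receptor, was at 2.71, 0.411 and 0.874 FPKM. The mast cell genes Cpa3, Kit and Tpsab1 were at 0.522, 0.144 and 0.221 FPKM, at 0.2202, 0.255 and 0.371 FPKM and at 0 in all samples. Of 12 dendritic cell genes 9 were members, with a sum of 216, 244 and 338 FPKM, and Xcr1 and Zbtb46, which mark conventional dendritic cells, were at 0.106, 0.01999 and 0.0794 FPKM and 0.129, 0.0526 and 0.0153 FPKM. Cd83, an activation marker that B cells also use, gave the largest part, and without it the sums were 126.3, 154.3 and 120.7 FPKM. The progenitor gene Cd34 was at 0.0283, 0.0319 and 0.0279 FPKM, and Myb, which lymphocytes use too, at 4.38, 6.899 and 10.1 FPKM.

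Genes that cells switch on within minutes of a stimulus were high, and lowest in replicate 3. All 21 listed immediate early genes were members, with a median rank of 410 and a sum of 6804, 7024 and 2507 FPKM. Replicate 3 was lowest in 17 of 21 as deposited and 20 with TMM scaling, against 14.2% and 32.7% of all members. Junb and Fos, of the AP-1 factor, were at 1420.1, 1831 and 466 FPKM and 279.7, 179 and 49.2 FPKM. Zfp36, which shortens the life of cytokine RNA, was at 1023, 929.7 and 209.6 FPKM, and Dusp1, a phosphatase of MAP kinases, at 697, 879 and 186 FPKM. Egr1 was at 561, 834 and 99.4 FPKM, a ratio of 8.39, and Fosb at 212, 78.3 and 15.6 FPKM, highest in replicate 1. Btg2 and Klf2, factors of quiescent lymphocytes, were not lowest in replicate 3 as deposited, though they were with TMM scaling, at 353, 287 and 391 FPKM and 435, 201 and 318 FPKM.

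Several cytokine genes of phagocytes had the sample order of the neutrophil genes. Of 26 listed genes 22 were members, with a sum of 5131, 8859.6 and 2131 FPKM. The chemokines Ccl3 and Cxcl2 were at 509, 1949 and 355 FPKM and 735, 1429 and 164 FPKM, and Il1rn, the antagonist of the interleukin 1 receptor, at 230.3, 612 and 73.5 FPKM. In these 3 and in Il1b replicate 2 was highest and replicate 3 lowest. Il6 was at 0.688, 8.56 and 1.51 FPKM and Il10 at 3.53, 12.1 and 4.96 FPKM, both highest in replicate 2 and lowest in replicate 1. Tnf differed 1.48 times as deposited, at 23.7, 23.7 and 16.1 FPKM. Il2, Il4 and Il12b had no count in any sample. Ltb and Tgfb1, made by lymphocytes and platelets among others, were at 87.3, 93.2 and 127 FPKM and 84.7, 116 and 144 FPKM, highest in replicate 3 as deposited.

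Interferon-stimulated genes were also lower in replicate 3. Of 20 members, replicate 3 was lowest in 12 as deposited and 16 with TMM scaling, against 14.2% and 32.7% of all members, and the sums were 1721, 1661 and 819 FPKM. Isg15, a ubiquitin-like protein, was at 349, 297 and 54.3 FPKM, Ifit3 at 451, 497 and 87.6 FPKM and Oasl at 96.1, 175 and 37.1 FPKM. Irf7, the factor that drives interferon alpha, was at 267, 246 and 97.7 FPKM. Ifi27 went the other way, at 161, 102 and 247 FPKM, and Mx1, an antiviral GTPase, was lowest in replicate 2, at 70.6, 20.6 and 59.8 FPKM. Bst2 and Stat2 differed 1.199 and 1.51 times as deposited, at 54.7, 45.6 and 52.2 FPKM and 27.4, 20.9 and 31.6 FPKM.

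Sensors of microbes differed widely in level. Of 15 Toll-like receptor and adaptor genes found 13 were members, and the receptor Tlr2 was at 51.8, 173 and 64.7 FPKM, while Tlr4, the receptor of lipopolysaccharide, was at 0.439, 0.391 and 0.525 FPKM, under the mean of 1. Tlr7, a sensor of RNA, was at 5.54, 15.8 and 8.56 FPKM, and Myd88, the shared adaptor, at 61.1, 71.4 and 38.04 FPKM. Replicate 2 was highest in 7 of 13 as deposited and 10 with TMM scaling, against 14.8% and 35.2% of all members. Among homing receptors, Cxcr4 was the highest at 799.7, 528 and 833 FPKM, rank 128, and Ccr1, of monocytes and neutrophils, was at 48.9, 127 and 25.6 FPKM. Cxcr5, the B cell follicle receptor, was at 6.699, 8.11 and 19.9 FPKM, and Cxcr3, of activated T cells, at 7.87, 2.96 and 5.45 FPKM. Of the adhesion molecules, Itgb2, the shared chain of leukocyte integrins, was at 169, 224 and 138 FPKM, Itgal at 81.4, 68.7 and 62.4 FPKM and Itga4 at 22.7, 18.1 and 19.8 FPKM, each within 2 times across samples as deposited. Icam1, a ligand of the Itgb2 integrins, was at 61.4, 299 and 74.5 FPKM, high in replicate 2 alone.

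Glycolytic genes were higher in replicate 2 in most members. Of 19 members, replicate 2 was highest in 13 as deposited and 15 with TMM scaling, against 14.8% and 35.2% of all members. Pkm, pyruvate kinase, was at 300.0, 517 and 319 FPKM, and Ldha, lactate dehydrogenase A, at 227, 324 and 236 FPKM. The glucose transporter Slc2a1 was at 20.7, 108 and 23.3 FPKM and Slc2a3 at 39.7, 72.3 and 10.8 FPKM, while Slc16a3, the lactate exporter, was at 263, 338 and 114 FPKM. Ldhb went the other way, at 64.03, 30.2 and 9.41 FPKM, highest in replicate 1. Tpi1, triosephosphate isomerase, was at 18.6, 30.4 and 16.6 FPKM. In NAD metabolism, Nampt, which recycles nicotinamide, was at 20.3, 32.9 and 13.5 FPKM, rank 2604, a ratio of 2.43. Bst1, a NAD-consuming ectoenzyme of myeloid cells, was at 82.9, 104 and 59.2 FPKM, and Cd38, its relative on lymphocytes, at 27.8, 12.97 and 41.97 FPKM, with opposite orders of replicates 2 and 3. Naprt and Nadsyn1, which feed NAD from nicotinic acid, were at 2.04, 2.74 and 2.11 FPKM and 2.48, 1.200 and 3.601 FPKM.

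Among iron and antioxidant genes a few were high in replicate 2 alone. Prdx5, a peroxiredoxin, was at 106, 1043 and 158 FPKM, a ratio of 9.81, and Sod2, the mitochondrial superoxide dismutase, at 301, 1019 and 285 FPKM. Hmox1, which breaks down haem, was at 8.97, 45.3 and 4.66 FPKM. Gpx1 and Prdx2, abundant in red cells, were close between samples as deposited, at 652, 906 and 626 FPKM and 485, 449 and 415 FPKM. Of the 15 listed genes, all members, 7 passed 2 times as deposited and 8 with TMM scaling, against 51.1% and 31.2% of all members. Of 11 heat shock members 3 passed 2 times as deposited and 2 with TMM scaling, against 51.1% and 31.2% of all members, with Hsp90ab1 at 376, 222 and 429 FPKM and Hspa8 at 182, 103 and 141 FPKM. Genes of cell division were low, with Mki67 at 1.62, 1.07 and 1.501 FPKM and Top2a at 1.09, 0.664 and 1.11 FPKM, while Pcna, also used in repair, was at 146, 135 and 111 FPKM.

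The spread between samples was far above counting error. The median coefficient of variation of a member was 35.5%, against 2.64% expected from its count alone, and it exceeded that expectation in 11154 of 11254 members. The median went from 43.6% in members at 1 to 2 FPKM to 30.1% at 50 to 100 FPKM, and was 36.4% in the 91 members at 1000 FPKM or more. The counting part went from 6.46% to 0.296% over the same range. The median SD of log2(FPKM + 1) was 0.44, and 0.30 with TMM scaling. edgeR's biological coefficient of variation, the spread between samples beyond counting, was 0.430 over the members. As deposited, 65.3% of members at 1 to 2 FPKM, 42.1% at 10 to 50 FPKM and 56.0% at 1000 FPKM or more passed 2 times, and with TMM scaling 51.9%, 23.1% and 25.3% did.

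**Figure D4:**
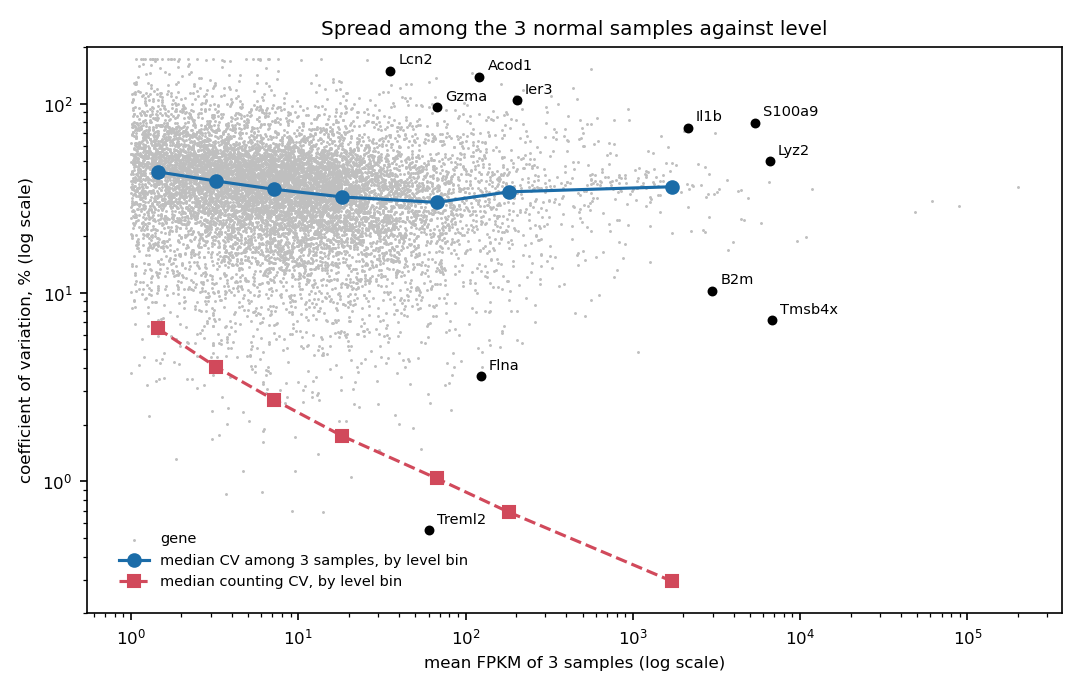
Coefficient of variation among the 3 normal samples in percent against mean FPKM, both on log scales, with each member as a grey point. Blue circles give the median by level bin and red squares the median expected from counts alone. The blue line stays between 30.1% and 43.6% while the red one goes from 6.46% to 0.296%.

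Among members with a mean of at least 10 FPKM and a count in every sample, the 20 with the largest ratio of highest to lowest FPKM were picked by that ratio, so it is a description. Of the 20, Lcn2, Ier3, Acod1, Ass1, Sirpd and Siglec5 were highest in replicate 2. Lcn2, given above, differed 29.8 times. Ier3, an early response gene, was at 152, 434 and 20.7 FPKM. Acod1, which makes itaconate in activated macrophages, was at 31.3, 315 and 15.99 FPKM, high in replicate 2 alone. Ass1, an enzyme of arginine synthesis, was at 1.17, 20.8 and 9.797 FPKM. Sirpd, a signal-regulatory protein, was at 41.7, 54.98 and 1.06 FPKM, and like Siglec5 it was far lower in replicate 3 than in the other samples. With TMM scaling 14 of the 20 genes were again among the 20 largest ratios, with 33.9 for Ier3 and 31.8 for Acod1.

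Others among the 20 included copies, a pseudogene and short features. LOC103694169 on chromosome 7, described as ribosomal protein L39, had the largest ratio, at 0.476, 0.523 and 75.9 FPKM, or 6, 8 and 1008 counts, while its namesake on chromosome 20 was at 134, 109 and 202 FPKM. Hba-a3, an alpha chain copy, was at 58.9, 66.2 and 1550.1 FPKM, highest in replicate 3, where the other alpha chain genes were lowest. The 3 alpha chain entries summed to 337471, 353356 and 177575 FPKM, lowest in replicate 3. RT1-CE3, a class I gene of a cluster of similar genes, was at 33.3, 2.02 and 41.4 FPKM, low in replicate 2 alone. LOC103692829, described as a pseudogene of ribosomal protein L9, was at 116, 6.38 and 18.9 FPKM, high in replicate 1 alone. Ubald1, a UBA-like protein gene, was at 0.474, 15.3 and 27.8 FPKM, and NEWGENE_1586233 at 0.975, 16.8 and 32.8 FPKM, both near 0 in replicate 1 alone. AABR07008505 and AC119336, listed as miRNAs of 110 bases, were at 7.79, 477 and 3.96 FPKM and 293, 19.98 and 14.5 FPKM. RF00016, a small nucleolar RNA, was at 29.3, 8.21 and 0.909 FPKM, and AABR07015066 at 44.4, 29.6 and 0.437 FPKM. The remaining 4, AABR07065750, RGD1562420, AABR07027451 and LOC100910678, were highest in replicate 3, between 33.8 and 45.2 FPKM, and lowest in replicate 2.

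Of the members, 92 were listed at 0 in at least 1 sample, 66 of them in 1 sample and 26 in 2. Of the 61 with a description, 19 shared it with another member, as did 3 of the 8 with a mean of at least 10 FPKM. Entries were paired here by symbol or description, and their sequences were not compared. LOC103689931, described as Hnrnpab is, an RNA-binding protein, was at 0, 57.5 and 108 FPKM, and Hnrnpab was at 105, 60.7 and 108 FPKM, so the sum was 105, 118 and 216 FPKM. LOC100910882, described as Rbm39-like, a splicing factor, was at 55.5, 35.3 and 0 FPKM, and Rbm39 at 54.5, 55.1 and 84.8 FPKM. Their sum was 110.0, 90.4 and 84.8 FPKM, a ratio of 1.296. Capns1, the small subunit of calpain, was at 36.98, 0 and 19.7 FPKM, and with its copies LOC100912380 and LOC108348197 the sum was 79.6, 68.6 and 118 FPKM. In each of these cases a sample at 0 in one entry was well above 0 in the other.

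The same held for 3 more pairs. Nhp2, of the ribonucleoprotein of small nucleolar RNAs, was at 23.5, 0 and 18.9 FPKM and its copy LOC103690013 at 0, 10.8 and 19.9 FPKM, summing to 23.5, 10.8 and 38.8 FPKM. Wbp11, a splicing protein, was at 16.5, 17.8 and 0 FPKM and Wbp11l1 at 13.5, 9.65 and 19.8 FPKM, summing to 29.9, 27.5 and 19.8 FPKM. Map2k3, a kinase of the p38 pathway, was at 14.2, 42.6 and 18.8 FPKM and LOC108348082 at 0, 40.8 and 0 FPKM, summing to 14.2, 83.4 and 18.8 FPKM, so replicate 2 stayed highest in the sum. For these genes the value of a single entry is uncertain. Rbp7, a retinol-binding protein, at 30.7, 0 and 0.274 FPKM, Ctrb1, chymotrypsinogen, at 13.9, 12.2 and 0 FPKM, and Surf2, at 16.6, 8.12 and 0 FPKM, completed the 10 leading members with a 0.

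**Figure D5:**
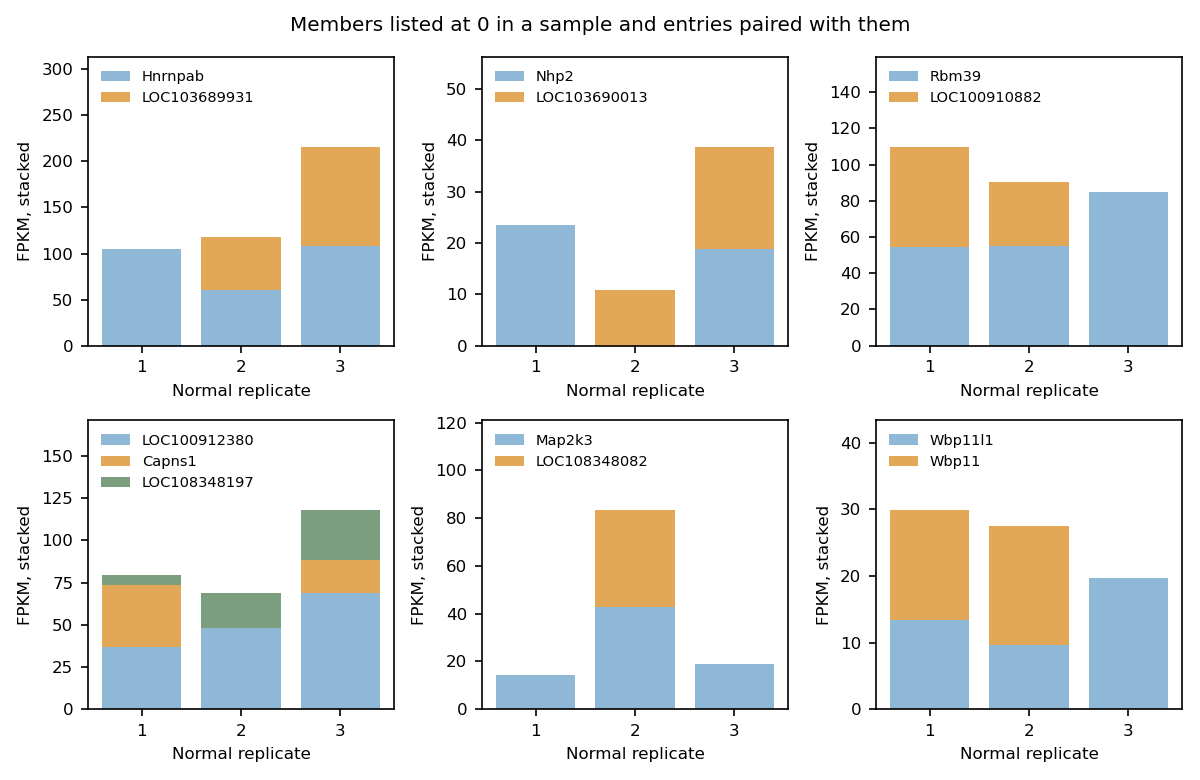
FPKM in each normal replicate of 6 genes and the entries paired with them by symbol or description, stacked, in 6 panels with separate axes. A bar segment is missing where an entry is listed at 0, and the other entry is above 0 in the same sample in all 6 panels.

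The steadiest genes at a mean of at least 50 FPKM were led by Treml2, a receptor of myeloid and lymphoid cells, at 60.3, 59.9 and 60.5 FPKM, a ratio of 1.01. Trafd1, a negative regulator of innate signalling, was at 53.6, 55.2 and 54.2 FPKM, and Arpp19, a phosphatase inhibitor of the cell cycle, at 79.8, 83.7 and 81.2 FPKM. Flna, the actin crosslinker filamin A, was at 128, 122 and 119 FPKM, and Arpc4 and Capza1, of the actin branching complex and the capping protein, at 82.9, 89.5 and 84.3 FPKM and 73.3, 79.6 and 78.1 FPKM. The other 9 were Pnp, Wdr1, Cib1, Serinc3, Bcas2, Wbp2, Ddx3x, Skap2 and Napa, each within 1.09 times as deposited. That evenness holds on the deposited scale alone, since with TMM scaling the ratios of these 15 genes were 1.5004 to 1.76. The 15 were picked for a small spread, so other genes can only be set against all members. Of 17 members used as references in PCR, 5 passed 2 times as deposited and 2 with TMM scaling, against 51.1% and 31.2% of all members. Among them Ppia was at 555, 369 and 865 FPKM and Hprt1 at 14.6, 17.3 and 13.97 FPKM.

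At the threshold, members just inside were Trio, Golga1 and AC111885, with Golga1 at 1.27, 0.587 and 1.15 FPKM. The first genes outside were LOC102550455 at 1.36, 1.51 and 0.122 FPKM, Cdh1, E-cadherin, at 1.62, 0.948 and 0.423 FPKM, and Apobec2 at 0.607, 1.12 and 1.27 FPKM. Of the members, 9955 reached 1 FPKM in each of the 3 samples.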

How the data were processed

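RNA of WBCs from 3 normal Wistar rat samples was read from 1 table of all genes, in which the authors deposited a count and an FPKM value per gene and sample. Per the study's methods, poly(A) RNA was sequenced as 2 × 150 bp pairs with a U-labelled second strand, filtered with Cutadapt 1.9, assembled with StringTie 1.3.4d and merged with Gffcompare 0.9.8. The submitters' processing notes also name HISAT2 2.0.4, while the genome build, the counting of shared reads and its use of strand are not given in the sources used here. The deposited extraction protocol speaks of retinas and another kit, against the label of leukocytes. The 16 columns of arthritic rats were not used. FPKM was read as 0 where the count was 0, and length was taken as counts over FPKM.

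Genes whose FPKM averaged 1 or more were kept. The highest over the lowest of the 3 FPKM values was compared with 2, and SDs were taken on log2(FPKM + 1). TMM factors and the biological coefficient of variation came from edgeR 4.0.16 (R 4.3.3) on the deposited count values, and DESeq2 1.42.0 gave size factors as an alternative. The script was tested on simulated data. With 71500619 to 85819418 counts per sample, counting error is small for most members. No p-value was computed.

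Genes were named by rule, namely the 30 most abundant, the 20 most abundant outside haemoglobin, ribosomal proteins and mitochondria, the 34 lists, the 20 with the largest ratio at a mean of at least 10 FPKM, the 10 leading members with a 0, the 15 steadiest at a mean of at least 50 FPKM, entries paired with them by symbol or description, and the genes next to the threshold. The members, lists and rules were chosen with earlier results of these data known. A few genes that these rules name are not reported here.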

Additional observations from a re-analysis of the deposited data

How the results depend on the processing

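The number of members past 2 times was 5747 (51.1%) as deposited and 3824 (34.0%) with equal upper quartiles. It was 3512 (31.2%) with TMM scaling and 3497 (31.1%) with DESeq2's size factors. Among genes with a mean of at least 10 FPKM it was 2083 of 4910, or 42.4%. With 1 replicate left out it went from 1774 of 11432 (15.5%) to 4849 of 11153 (43.5%). A gene's ratio over fewer samples cannot be larger than over all 3. The median SD on the log2 scale was 0.30 with TMM scaling and 0.29 to 0.53 with 1 replicate left out. The haemoglobin share was 25.7% of counts, and the share of the 100 most abundant genes was 43.9% of counts and 43.1% of FPKM without haemoglobin. The number of lineage lists past 2 times was 3 to 5 with 1 replicate left out. A list's ratio over fewer samples cannot be larger than over all 3, so this number could only stay or fall from 7. The cause of the other shifts was not tested. In the direction seen as deposited, the ratio of list sums was 0.955 for dendritic cells without Cd83, and 0.908 without haemoglobin and 0.5001 without Myb for progenitors, so the order of those samples turned. The ratio went below 2 for monocytes without Lyz2 (1.54) and for T cells without haemoglobin (1.71) and with TMM scaling (1.499), and above 2 for eosinophils without haemoglobin (2.67), with TMM scaling (3.04) and without Alox15 (4.32), and for other erythroid genes without haemoglobin (2.26) and with TMM scaling (2.05). Leaving out each list's most abundant gene, and genes under 200 bases, was chosen after seeing the data. Of the values that answer a question, 37 stayed within 1.5 times or 1 SD and 13 did not. Depth limits little, while 3 samples limit every estimate of spread. No paired analysis was possible because only 1 group was used.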
